A study of Mus musculus with 80 samples.

Results

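The hypertrophy and fetal gene programme was followed in 80 libraries of mouse left ventricle through 10 genes, Nppa, Nppb, Myh6, Myh7, Acta1, Ankrd1, Rcan1, Mef2c, Gata4 and Myh7b. They were chosen by name as rows of the deposited table of raw gene counts, which holds 56941 genes. All 10 were among the 15879 genes that passed a filter on low counts. The lowest count of any of them in any library was 15, for Nppa.

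These genes are the textbook readout of a stressed ventricle. Before birth the ventricle makes much natriuretic peptide, skeletal-type actin and beta myosin; after birth the mouse ventricle turns to alpha myosin, and load or injury brings part of the fetal pattern back. Nppa and Nppb encode the natriuretic peptides ANP and BNP, hormones that lower blood volume and pressure; Nppa stays high in the atria throughout life. Myh6 encodes the fast alpha myosin heavy chain of the adult mouse heart and Myh7 the slow beta chain, and Myh7b is a related myosin gene whose intron carries a microRNA. Acta1 encodes skeletal alpha actin. Ankrd1 encodes CARP, a titin-bound protein of the sarcomere that stretch induces. Rcan1 encodes an inhibitor of the phosphatase calcineurin and is itself a target of the calcineurin and NFAT pathway, while Mef2c and Gata4 encode transcription factors of heart muscle.

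All mice were C57Bl/6J and all samples were left ventricular tissue, from which poly-A selected RNA was sequenced. Each sex had 4 groups of 10 libraries: Western diet without irradiation (0 cGy); normal diet with a radiation field labelled Mix at 50 cGy, called the mixed field here; normal diet with gamma rays at 100 cGy; and sham, normal diet at 0 cGy, to which the other 3 were compared within each sex. The labels give no age, no time after exposure, no hour of collection and no makeup of the mixed field. They also do not say that each library came from its own mouse, so p-values measure the spread between libraries. Within each group 5 libraries have title numbers 1-20 and 5 have 21-40, and no label explains that split. In bulk tissue, fewer cells of a type and less RNA per cell cannot be told apart.

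The libraries held between 13484776 and 22143504 counts, with a median of 16383718. Counts scaled to library size (CPM) were computed with trimmed-mean-of-M-values scaling factors between 0.868 and 1.14. The summed CPM of 12 cardiomyocyte markers lay between 37150 and 60820 in every library, so all 80 had the signature of heart muscle. In 1 library labelled female, female gamma replicate 7, Xist stood at 0.129 CPM, against 102 to 280 CPM in the other 39 female libraries and 0 to 0.692 CPM in male libraries; its Ddx3y count was 0, as in the other females. A second library, female mixed field replicate 10, stood apart by its correlation with the rest. Without these 2 libraries, 5 members were still called between the sexes, against 23.1% of all genes. The single female call between title numbers was then lost, while 20.1% of all genes were called, as given below.

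Divided by exon length, the members spanned a wide range of levels over the 80 libraries. Myh6 was highest, with 2554 ± 424 CPM per kb (SD, n = 80). Ankrd1 followed with 214 ± 82.9, Nppb with 166 ± 108, Acta1 with 111.5 ± 74.6 and Myh7 with 59.5 ± 46.5 CPM per kb. Rcan1 (27.2 ± 7.41), Gata4 (26.3 ± 3.56) and Myh7b (25.4 ± 10.4 CPM per kb) differed by less than their spread between libraries. Nppa had 14.01 ± 21.3 and Mef2c 3.48 ± 0.497 CPM per kb. Nppa was thus near the bottom of the order while its neighbour and sister hormone Nppb was near the top.

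The members also differed in how much they varied from library to library. Nppa had the largest coefficient of variation, 151.7%, and its highest library held 138 times the CPM of its lowest. The same ratio was 42.3 for Nppb, 26.2 for Acta1, 24.9 for Myh7, 13.6 for Myh7b and 5.24 for Ankrd1. The 2 transcription factors were the steadiest along with Myh6: the coefficient of variation was 13.5% for Gata4, 14.3% for Mef2c and 16.6% for Myh6. The ratio of highest to lowest library was 1.87 for Gata4.

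**Figure D1:**
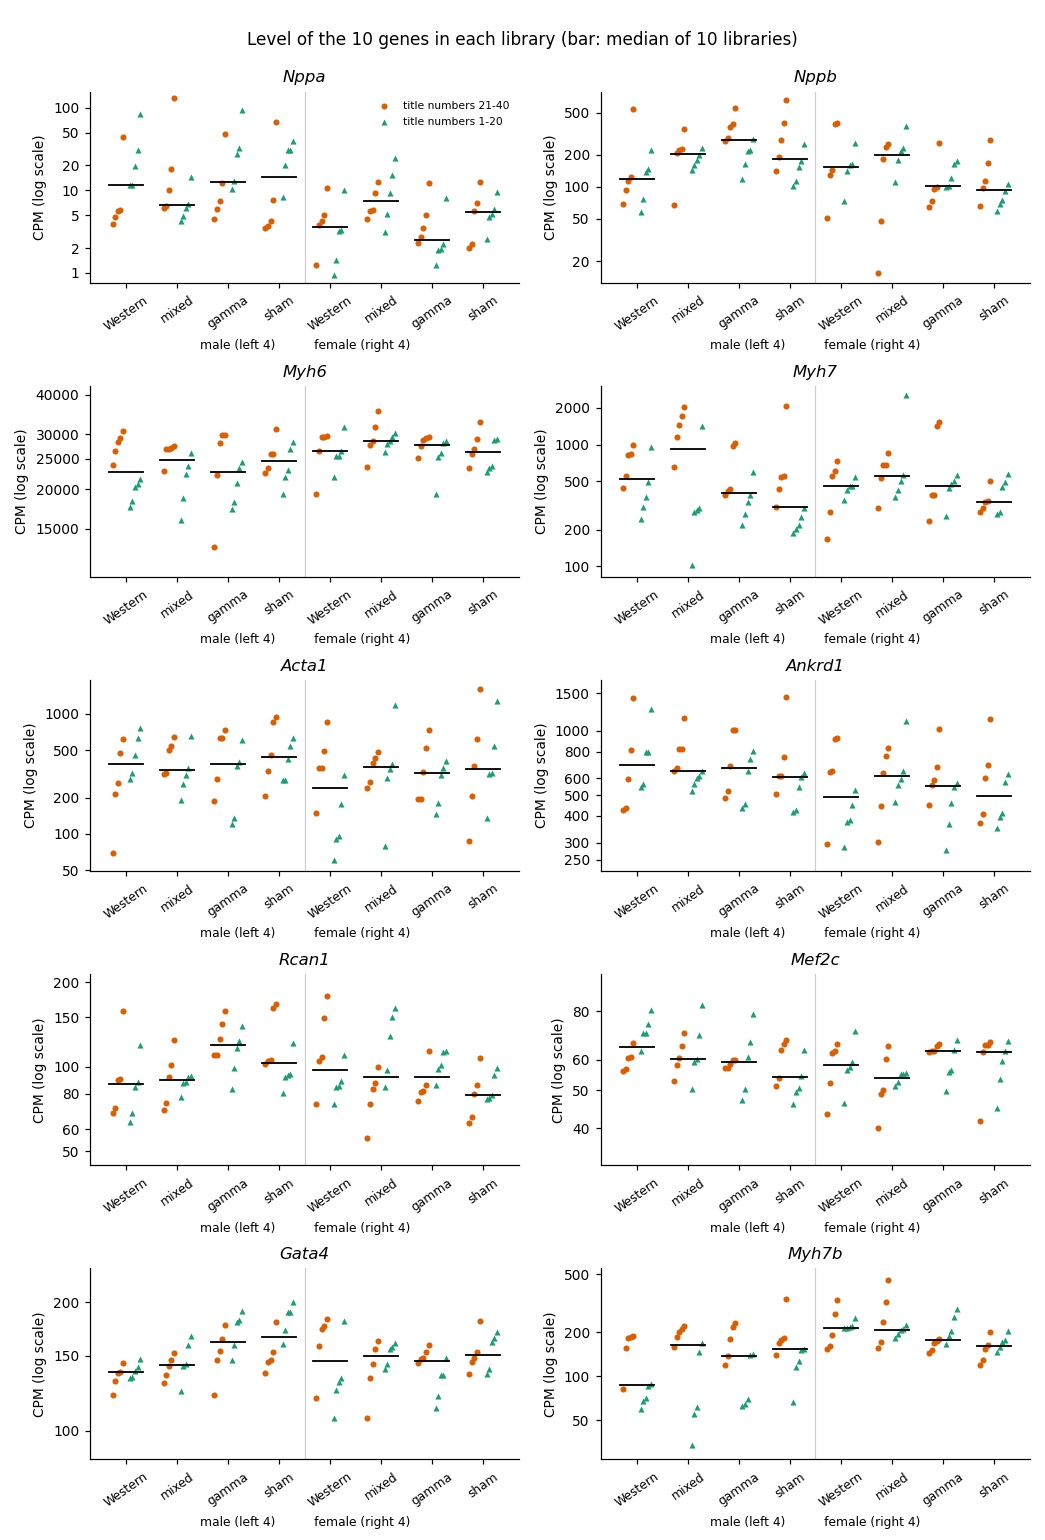
Level of each member in every library, in CPM on log axes, with a panel per gene; circles are libraries with title numbers 21-40, triangles those with 1-20, and the bar is the median of the 10 libraries of a group, males left and females right with sham last in each. Myh6 spans 13150 to 35620 CPM and Gata4 107 to 200.5 CPM, while Nppa spans 0.945 to 130.6 CPM, with its highest libraries among males.

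The members include 2 pairs of neighbours. On chromosome 4 of GRCm39, Nppb (ENSMUSG00000029019, 148069859 to 148071662) and Nppa (ENSMUSG00000041616, 148085091 to 148086583) both run on the plus strand, 13428 bases apart. On chromosome 14, Myh6 (ENSMUSG00000040752, 55179367 to 55205887) and Myh7 (ENSMUSG00000053093, 55208141 to 55232084) both run on the minus strand, 2253 bases apart. Gata4 (ENSMUSG00000021944) is also on chromosome 14, at 63436362 to 63509141. The others are Acta1 (ENSMUSG00000031972) at 124618501 to 124623661 on chromosome 8, Ankrd1 (ENSMUSG00000024803) at 36089352 to 36097506 on chromosome 19, Rcan1 (ENSMUSG00000022951) at 92188840 to 92267755 on chromosome 16, Mef2c (ENSMUSG00000005583) at 83652064 to 83815555 on chromosome 13 and Myh7b (ENSMUSG00000074652) at 155453096 to 155476234 on chromosome 2. Whether counting used the strand is not given in the sources used here, and antisense genes overlap 60.4% of the exon bases of Nppa (Gm13054), 24.6% of Myh7 (Mhrt), 24.3% of Ankrd1 (Gm56671) and 5.63% of Acta1 (Gm29773). Reads from these partners cannot be told apart from the members' own, and Myh6 and Myh7, near-identical over long stretches, may also have exchanged reads.

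The 250 bases upstream of the annotated start are shown for Nppb, Ankrd1, Acta1 and Rcan1, whose levels moved together between libraries (below), and for Nppa, which did not follow them in every set of libraries. They come from a RefSeq table on GRCm38.p6 that held 13 windows for 9 of the 10 members. Capitals mark exact matches, on either strand, to the M-CAT motif CATTCC of TEAD factors, the GATA-factor motif GATAA, the TATA-box letters TATAAA, the AP-1 motif TGANTCA and the CArG box of serum response factor; no match overlaps another.
Nppb, chr4:147985650-147985899, plus strand: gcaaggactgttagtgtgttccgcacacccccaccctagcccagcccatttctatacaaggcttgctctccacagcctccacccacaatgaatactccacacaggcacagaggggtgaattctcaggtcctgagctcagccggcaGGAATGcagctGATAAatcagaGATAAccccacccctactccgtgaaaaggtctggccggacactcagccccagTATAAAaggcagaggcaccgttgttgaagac
Ankrd1, chr19:36119845-36120094, minus strand: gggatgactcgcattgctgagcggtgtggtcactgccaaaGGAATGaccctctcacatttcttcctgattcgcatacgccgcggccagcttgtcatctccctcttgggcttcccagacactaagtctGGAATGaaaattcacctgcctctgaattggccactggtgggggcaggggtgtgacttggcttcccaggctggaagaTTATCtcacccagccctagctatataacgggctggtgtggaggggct
Acta1, chr8:123894776-123895025, minus strand: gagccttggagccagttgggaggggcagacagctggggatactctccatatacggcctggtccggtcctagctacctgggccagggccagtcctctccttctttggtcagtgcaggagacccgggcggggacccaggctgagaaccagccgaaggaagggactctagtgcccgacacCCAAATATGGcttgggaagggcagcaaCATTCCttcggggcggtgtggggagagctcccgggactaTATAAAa
Rcan1, the first of 2 windows, chr16:92400079-92400328, minus strand: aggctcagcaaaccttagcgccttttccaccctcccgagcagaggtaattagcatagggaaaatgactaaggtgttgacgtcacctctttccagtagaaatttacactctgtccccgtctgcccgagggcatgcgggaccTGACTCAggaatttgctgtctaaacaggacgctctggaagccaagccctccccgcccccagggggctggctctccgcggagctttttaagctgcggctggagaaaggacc
Nppa, chr4:148000472-148000721, plus strand: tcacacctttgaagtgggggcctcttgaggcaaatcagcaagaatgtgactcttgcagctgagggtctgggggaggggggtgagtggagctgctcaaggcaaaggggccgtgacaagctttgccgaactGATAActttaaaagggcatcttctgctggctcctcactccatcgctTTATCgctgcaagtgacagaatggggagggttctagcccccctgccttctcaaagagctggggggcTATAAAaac

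Nppb has 1 M-CAT match starting 105 bases before the start, Ankrd1 has 2 at 210 and 123, and Acta1 has 1 at 46. Nppa has none in this window, but 2 GATA matches at 121 and 75, as Nppb has at 94 and 83. Acta1 carries the CArG box at 73, and the Rcan1 window shown carries 1 AP-1 match at 110. Over the members, 6 had an M-CAT match and 5 a GATA match in at least 1 window. The M-CAT match was thus not particular to the genes that moved together: Myh6, Myh7 and Mef2c also had one, and Rcan1 had none. Some members have more than 1 window, so these counts are not directly comparable with the shares per window that follow. Of all 32851 windows in the table, 12.6% hold the M-CAT letters, 22.6% GATAA, 12.4% TATAAA, 6.75% the AP-1 letters, 1.47% a CArG box and 0.508% a MEF2 box, of which no member had a match. A match of letters is a description of the window and shows no binding.

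The 3 myosin genes each carry a microRNA inside an intron. The mature sequences, on GRCm38.p6 from RefSeq, are shown because their host genes differed between sets of libraries, as given below. Capitals mark the seed, bases 2 to 8.
mmu-miR-208a-3p, in Myh6, chr14:54949072-54949093, minus strand: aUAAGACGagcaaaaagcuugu
mmu-miR-208b-3p, in Myh7, chr14:54975710-54975731, minus strand: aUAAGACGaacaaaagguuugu
mmu-miR-499-5p, in Myh7b, chr2:155622893-155622913, plus strand: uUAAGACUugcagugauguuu
The microRNAs of Myh6 and Myh7 share their seed and are identical at 19 of 22 positions. That of Myh7b has another seed, which shares a run of 6 bases with that of miR-208a-3p. Poly-A selected libraries measure the host transcripts and not these microRNAs.

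Nppa was set against Myl7, which encodes the atrial regulatory light chain and is nearly silent in adult ventricle, because atrial muscle in a sample would bring Nppa with it. Myl7 was above 10 CPM in 20 of 40 male libraries and in 0 of 40 female libraries, where its highest value was 0.452 CPM and 17 libraries were at 0. Of the 20 male libraries, 17 were among the 20 with title numbers 1-20 and 3 among the 20 with 21-40, namely mixed field replicate 8 (628 CPM), sham replicate 6 (102 CPM) and gamma replicate 10 (80.4 CPM). So Myl7 passed that level in most earlier-numbered male libraries, in few later-numbered ones, and in no female one.

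Nppa followed Myl7 in the males. Nppa in the 20 male libraries with over 10 CPM of Myl7 ran from 4.28 to 130.6 CPM with a median of 29.1. In the 20 males at or under 10 CPM it ran from 3.48 to 44.7 with a median of 6.00, and in the 40 females from 0.945 to 24.5 with a median of 4.88. The 3 sets overlap, but the first has the highest median.

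Across the 20 male libraries with title numbers 1-20, the correlation of log2 levels of Nppa and Myl7 was r = 0.79 and rho = 0.84 (permutation p = 0.00002 and 0.00001, the second being the smallest the permutations can give; 0.00044 and 0.00022 adjusted over 44 relations). It was 0.85 without the 2 libraries farthest from the median of Myl7. On deviations from the group mean it was lower, at 0.64 (permutation p = 0.00211), so part of it lay between groups. With title numbers 21-40 it was r = 0.83 and rho = 0.54 (permutation p = 0.00026 and 0.0165, adjusted 0.00381 and 0.121). There it rested on the few libraries with Myl7: r was 0.57 without the 2 farthest and 0.06 without all 3 over 10 CPM. In females r was -0.01 with title numbers 1-20 and 0.35 with 21-40 (permutation p = 0.964 and 0.136). Myl7 at these female levels is close to a single read per library. A male library that went the other way was Western diet replicate 7, with 44.7 CPM of Nppa and 0.193 CPM of Myl7.

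**Figure D2:**
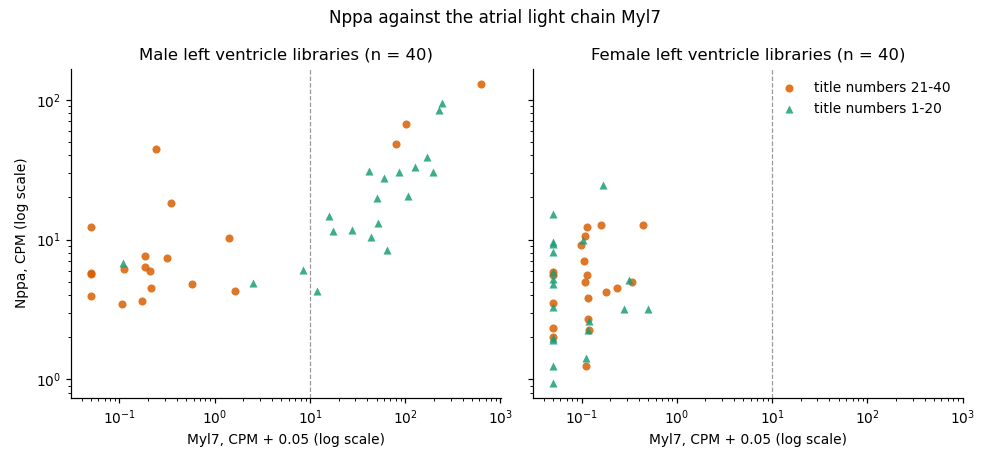
Nppa (CPM) against Myl7 (CPM plus a small constant) in each library, both on log axes, with males in the left panel and females in the right; circles are title numbers 21-40, triangles 1-20, and the dashed line stands at 10 CPM of Myl7. Of the male libraries, 17 triangles and 3 circles lie right of the line, where Nppa climbs with Myl7, while no female library exceeds 0.452 CPM of Myl7.

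No member passed the test for diet or radiation. In 12 comparisons with sham (3 treatments, in males, in females, as the mean of the sexes, and as the male effect minus the female effect), 0 of 10 members passed an adjusted p of 0.05 by edgeR's quasi-likelihood test, in any of them. limma-voom also called 0 in all 12, and DESeq2 called 1, Gata4 in Western-diet males, where it called 0.919% of all genes. The 3 treatments share the 10 sham libraries of each sex, so a high or low sham library moves all 3 alike. The median absolute log2 change of the members was 0.26 in males and 0.31 in females with the Western diet, against 0.12 and 0.10 over all genes. It was 0.19 and 0.36 after the mixed field, against 0.10 in each sex over all genes, and 0.11 and 0.18 after gamma rays, against 0.09 and 0.12. Intervals below are 95% confidence intervals on the log2 scale.

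With the Western diet, the largest relative shift against its error was a lower Gata4 in males. Gata4 ran from 121 to 147 CPM with a median of 137 in Western-diet males, against 136 to 200.5 CPM with a median of 166 in sham males. All 10 Western-diet libraries lay below the sham median, though the groups overlap. The log2 change was -0.30 ± 0.08 (SE; interval -0.45 to -0.14), with an unadjusted p of 0.000406 and an adjusted p of 0.0657 by edgeR. The adjusted p was on either side of the threshold over the alternatives: 0.04 by DESeq2, 0.0359 with a term for title numbers, 0.0449 without male sham replicate 6, and up to 1 without the libraries with over 10 CPM of Myl7. Within title numbers 1-20 the change was -0.39 (adjusted p = 0.0352) and within 21-40 it was -0.19 (adjusted p = 0.915, both by edgeR).

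Mef2c was on the other side in the same males, though short of the threshold. It averaged 65.96 ± 7.89 CPM in Western-diet males and 56.7 ± 7.69 CPM in sham males (SD, n = 10 each), and all 10 Western-diet libraries lay above the sham median. The log2 change was 0.22 ± 0.09, adjusted p = 0.263 by edgeR. It was 0.45 within title numbers 1-20 (adjusted p = 0.0454) and -0.01 within 21-40. The ribosomal RNA share, the percentage of counts on Rn18s-rs5, also differed in the 1-20 set, at 0.178 to 0.419% in Western-diet males and 0.293 to 1.96% in sham males; with its log2 as a term over all libraries the changes were -0.32 for Gata4 and 0.17 for Mef2c (adjusted p = 0.0615 and 0.405). In females Gata4 and Mef2c changed by -0.05 ± 0.08 and -0.03 ± 0.09. Over all 15879 genes, 0.397% were called in Western-diet males and 12.8% had an unadjusted p under 0.05, against 3 of 10 members with such a p, Rcan1 being the third.

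The 2 load-responsive genes Nppb and Rcan1 pointed in opposite directions in the sexes with the Western diet, and their difference did not pass. Nppb ran from 58.6 to 546 CPM with a median of 120 in Western-diet males, against 102 to 659 with a median of 183 in sham males. In females it ran from 50.6 to 396.5 CPM with a median of 153 on the Western diet, against 59.2 to 275 with a median of 94.5 in sham. The groups overlap in both sexes. The log2 change was -0.63 ± 0.36 in males and 0.77 ± 0.36 in females, and the male effect minus the female effect was -1.40 ± 0.51 (adjusted p = 0.284 by edgeR).

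Rcan1 gave the same picture at a smaller size. It averaged 90.3 ± 29.03 CPM in Western-diet males and 112.6 ± 29.8 CPM in sham males, and 106 ± 34.1 CPM in Western-diet females and 82.9 ± 14.01 CPM in sham females (SD, n = 10 each). The male effect minus the female effect was -0.67 ± 0.21, adjusted p = 0.181 by edgeR. Without Western-diet male replicate 7, the highest of its group for both genes, the adjusted p was 0.0492 for Nppb and 0.0476 for Rcan1. With 2 principal components of 17 circadian clock genes as terms, the differences turned to 0.46 for Nppb and 0.22 for Rcan1. The first component itself differed with diet, in opposite directions in the sexes. It ran from -4.58 to 1.35 in Western-diet males and from -1.911 to 5.536 in sham males. In females numbered 1-20 it ran from 0.0946 to 4.166 on the Western diet and from -2.565 to -0.539 in sham. This fit therefore cannot separate the clock genes from the diet groups. The hour of collection is not in the labels, and its part was not tested.

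Among the other members on the Western diet, Myh7b had a sex difference of -0.93 ± 0.34 (adjusted p = 0.289), which passed only with a term for title numbers (-0.99, adjusted p = 0.0485). Acta1 averaged 294 ± 244 CPM in Western-diet females and 548.5 ± 504.5 CPM in sham females, a log2 change of -0.90 ± 0.40 (adjusted p = 0.622, edgeR). In that sham group 2 libraries, replicate 9 with 1602 CPM and replicate 5 with 1282 CPM, lie far above the median of 347 CPM. Over all genes 0.0189% were called in females, 0% for the mean of the sexes and 0.447% for the difference of the effects. At an unadjusted p under 0.05 these held 7.39%, 11.4% and 9.24% of genes, and 3, 2 and 5 of the 10 members.

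After the mixed field, Myh7 was higher on average in both sexes, but its spread was wide and the test was not passed. Myh7 ran from 102 to 2020 CPM with a median of 912 in mixed-field males, against 187.5 to 2079 with a median of 306 in sham males. In females it ran from 304 to 2535 CPM with a median of 548 after the mixed field, against 268 to 576 with a median of 340 in sham. The groups overlap in both sexes; in females 9 of 10 mixed-field libraries were above the sham median. The mean of the sexes had a log2 change of 0.93 ± 0.28 (interval 0.39 to 1.47), with 15 of 20 libraries above the sham median, an unadjusted p of 0.00121 and an adjusted p of 0.507 by edgeR. Over the alternatives the adjusted p lay between 0.113 and 0.997.

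As a share of Myh6 plus Myh7 counts, Myh7 made up 3.77 ± 2.76% in mixed-field males and 2.03 ± 2.31% in sham males, and 2.56 ± 2.28% in mixed-field females and 1.44 ± 0.438% in sham females (SD, n = 10 each). It was 2.46 ± 1.06% in Western-diet males, 2.21 ± 1.14% in gamma males, 1.76 ± 0.820% in Western-diet females and 2.26 ± 1.66% in gamma females. Alpha myosin thus remained the great majority in every library, the highest beta share being 8.81%, in female mixed field replicate 4. These shares are descriptive and were not tested.

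The other members did not pass the adjusted threshold after the mixed field either. Gata4 was 144 ± 12.97 CPM in mixed-field males and 167 ± 22.3 CPM in sham males, a log2 change of -0.22 ± 0.08 (adjusted p = 0.424 by edgeR). Nppb was 185.5 ± 106 CPM in mixed-field females and 112 ± 65.2 CPM in sham females, a change of 0.73 ± 0.36 (adjusted p = 0.77 by edgeR). Within title numbers 1-20 that change was 1.47 (adjusted p = 0.0373 by edgeR). Within 21-40 the means were close, at 147 ± 109 CPM after the mixed field and 143 ± 82.05 CPM in sham (SD, n = 5 each). Nppa in males was 20.8 ± 38.8 CPM after the mixed field and 21.5 ± 20.7 CPM in sham, a change of -0.04 ± 0.54. That mean hides a split that Myl7 shares. Among title numbers 1-20, Nppa ran from 4.28 to 14.6 CPM after the mixed field, against 8.39 to 39.1 in sham, and Myl7 from 0.0587 to 15.9 CPM, against 64.4 to 194 CPM, without overlap. Among title numbers 21-40 the mixed field held the library with the highest Nppa of all, replicate 8 with 130.6 CPM and 628 CPM of Myl7.

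The sex differences of the mixed-field effect were -1.04 ± 0.51 for Nppb, -0.63 ± 0.21 for Rcan1, 0.29 ± 0.12 for Mef2c and -0.71 ± 0.34 for Myh7b, with adjusted p between 0.341 and 0.545 by edgeR. Over all genes, 0.0693% were called after the mixed field in males, 0% in females, 0% for the mean of the sexes and 0.0315% for the difference. The shares with an unadjusted p under 0.05 were 8.17%, 6.47%, 5.7% and 9% of genes, and 3, 4, 2 and 4 of the members.

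After gamma rays no member came near the threshold. None had an unadjusted p under 0.05 in any of the 4 gamma comparisons, and the smallest adjusted p was 0.971 in males and 0.509 in females by edgeR. Nppb averaged 287 ± 124 CPM in gamma males and 246 ± 170 CPM in sham males, a log2 change of 0.22 ± 0.36. Myh7 averaged 621 ± 467.5 CPM in gamma females and 383 ± 111 CPM in sham females, a change of 0.70 ± 0.39 (interval -0.06 to 1.46). The interval for Nppa in gamma males ran from -0.81 to 1.32, so only large changes of this variable gene could have been seen. Over all genes 0.176% were called in males, 0% in females, 0% for the mean of the sexes and 0% for the difference, and 5.43%, 10.3%, 10.9% and 5.38% had an unadjusted p under 0.05.

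**Figure D3:**
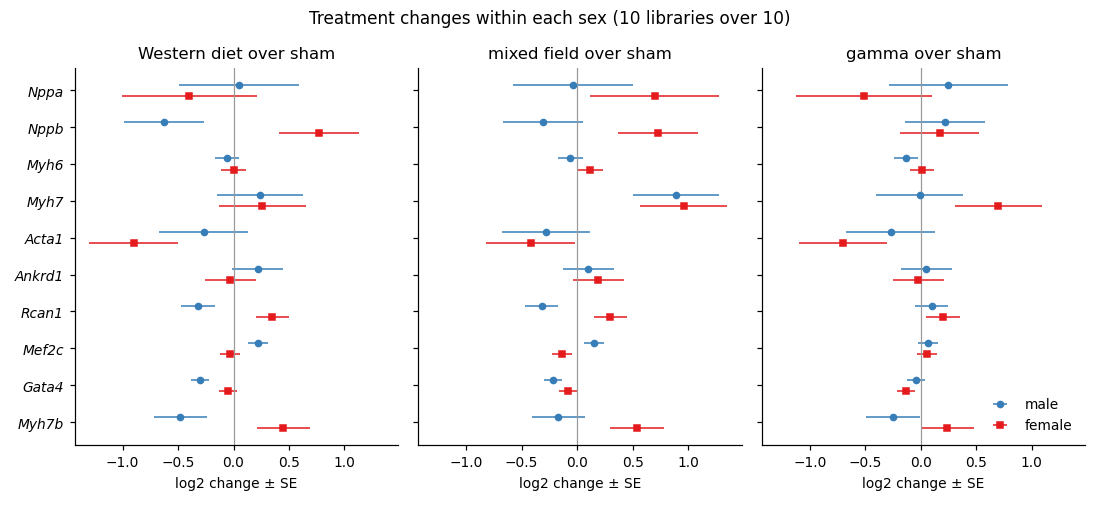
Log2 change of each member against sham, in males (circles) and in females (squares), with a panel each for the Western diet, the mixed field and gamma rays; points are edgeR estimates from 10 libraries over 10 and bars their standard errors. None of the changes shown passed an adjusted p of 0.05; Gata4 in Western-diet males (-0.30) is the one whose adjusted p, 0.0657, came closest.

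Males and females differed in 5 of the 10 members when averaged over the 4 conditions, against 23.3% of all genes; the members' median absolute difference was 0.20, against 0.10 over all genes. Nppa, Nppb and Ankrd1 were higher in males; Myh6 and Myh7b were lower. Nppa ran from 3.48 to 130.6 CPM with a median of 10.98 in males, against 0.945 to 24.5 with a median of 4.88 in females. The log2 difference was 2.00 ± 0.29 (adjusted p = 2.32e-07 by edgeR), and 33 of 40 males lay above the female median. Nppb averaged 223 ± 137 CPM in males and 153.5 ± 94.7 CPM in females (SD, n = 40 each), a difference of 0.54 ± 0.18 (adjusted p = 0.0208).

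Ankrd1 was the weakest of these calls. It averaged 703 ± 258 CPM in males and 573 ± 220 CPM in females (SD, n = 40 each), a log2 difference of 0.30 ± 0.11, adjusted p = 0.0465 by edgeR. DESeq2 gave 0.0563, the fit without a low-count filter 0.0665 that with clock components 0.14 and that of title numbers 21-40 only 0.276, and leaving out any 1 of 29 libraries ended the call (highest adjusted p 0.0782, without male sham replicate 6). Nppb lost its call without Western-diet male replicate 7 (adjusted p = 0.051).

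The 2 lower members were myosin genes. Myh6 ran from 13150 to 31040 CPM with a median of 23580 in males, against 19270 to 35620 with a median of 27770 in females, a log2 difference of -0.19 ± 0.05 (adjusted p = 0.00556 by edgeR). Myh7b ran from 33.7 to 339 CPM with a median of 145 in males, against 120 to 458 with a median of 189.5 in females. Its difference was -0.53 ± 0.12 (adjusted p = 0.000646), and 34 of 40 males lay below the female median. With the ribosomal RNA term it was -0.61 ± 0.10 and the same 5 members were called, against 24.8% of all genes. The remaining 5 members were close between the sexes: Myh7 0.21 ± 0.19, Acta1 0.15 ± 0.20, Rcan1 0.09 ± 0.08, Mef2c 0.08 ± 0.04 and Gata4 0.05 ± 0.04. The summed CPM of the cardiomyocyte markers had a median of 50950 in males and 46370 in females, and its part was not tested.

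The sex difference in Nppa moved with the atrial transcripts. Of 11 atrial muscle markers, 8 were higher and 1 lower in males, while 11.8% of all genes were called higher and 11.5% lower. Among the higher ones were Myl7 (log2 difference 9.67), the sarcolipin gene Sln (9.99) and Myl4 (5.60). The summed CPM of the list ran from 121.5 to 2395 with a median of 210 in males, against 128 to 192 with a median of 159 in females. Sln averaged 25.2 CPM in males and 0.0207 CPM in females. Without the 20 libraries with over 10 CPM of Myl7, all of them male, the Nppa difference was 0.49 ± 0.26 (adjusted p = 0.239 by edgeR), and with log2 Myl7 as a term 0.28 ± 0.27 (adjusted p = 0.58).

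The other 4 calls did not all behave alike when those 20 libraries were left out. Nppb kept its difference, at 0.73 ± 0.22 (adjusted p = 0.0228 by edgeR), and was then the single member called, against 9.68% of all genes. Myh6 stood at -0.07 ± 0.06 (adjusted p = 0.544), Myh7b at -0.28 ± 0.12 (adjusted p = 0.133) and Ankrd1 at 0.27 ± 0.14 (adjusted p = 0.225). Leaving those libraries out also removed 17 of the 20 males with title numbers 1-20, so atrial transcript and title numbers cannot be told apart in males. In sham libraries alone, 10 against 10, edgeR called 0 of 10 members, with an unadjusted p under 0.05 for 3 (Nppa, Nppb and Rcan1), against 1.2% and 11.9% of all genes; Nppa differed by 1.89 ± 0.58 (adjusted p = 0.0893) and Myh7b by 0.00 ± 0.24.

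Within each set of title numbers the sexes differed in other ways. With 1-20, the male minus female difference was -1.09 ± 0.14 for Myh7b, -0.29 ± 0.06 for Myh6 and -0.47 ± 0.23 for Myh7. With 21-40 it was -0.11 ± 0.12 for Myh7b, -0.10 ± 0.08 for Myh6 and 0.67 ± 0.23 for Myh7 (adjusted p = 0.031 by edgeR). Nppa was higher in males in both sets, by 2.04 ± 0.31 and 1.68 ± 0.43, and Nppb by 0.25 ± 0.15 and 0.80 ± 0.29 (adjusted p = 0.203 and 0.0454). In the 21-40 set without libraries over 10 CPM of Myl7, edgeR called 0 of 10 members, with an unadjusted p under 0.05 for 2 (Nppb and Rcan1), against 18.1% and 31.5% of all genes; Nppa then differed by 0.50 ± 0.30 and Nppb by 0.70 ± 0.30 (adjusted p = 0.252 and 0.1).

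Title numbers 21-40 against 1-20 changed 5 of 10 members in males, where 28.8% of all genes were called. Myh7 ran from 308 to 2079 CPM with a median of 739 in males numbered 21-40, against 102 to 1418 with a median of 295 in those numbered 1-20. All 20 later-numbered libraries lay above the earlier-numbered median, and the log2 difference was 1.19 ± 0.25 (adjusted p = 0.000137 by edgeR). Myh7b ran from 81.2 to 339 CPM with a median of 182.5, against 33.7 to 169 with a median of 78.5, also with 20 of 20 above that median. Its difference was 0.94 ± 0.14 (adjusted p = 1.36e-07), and 0.61 ± 0.14 (adjusted p = 0.00198) with the log2 ribosomal RNA share as a term.

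The median ribosomal RNA share was higher with title numbers 21-40 in males and lower in females, whereas Myh7b was called in males only. The share ran from 1.09 to 3.29% (median 1.65%) in males numbered 21-40, against 0.161 to 2.26% (median 0.351%) in those numbered 1-20. In females it ran from 0.4 to 0.776% (median 0.484%) with 21-40, against 0.102 to 5.03% (median 3.57%) with 1-20. Within males numbered 1-20, a limit of 0.5% chosen after seeing the values left 8 libraries over it, with 116 to 169 CPM of Myh7b, and 12 under it, with 33.7 to 88.3 CPM. How many of all genes separate at that limit was not counted, so the split only describes these libraries and shows nothing particular to Myh7b. In these libraries Spearman's rho with the share was 0.81 for Myh7b, 0.64 for Myh6 and -0.66 for Mef2c. For the other members it lay between -0.45 and 0.47. With the log2 share as a term, also chosen after seeing the data, edgeR called 2 of 10 members in males, Myh7 (1.18 ± 0.32, adjusted p = 0.0111) and Myh7b, against 8.68% of all genes.

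The other 3 calls in males were smaller. Myh6 averaged 26080 ± 4055 CPM with 21-40 and 21460 ± 3349 with 1-20 (SD, n = 20 each), a log2 difference of 0.28 ± 0.07 (adjusted p = 0.001 by edgeR). Nppb averaged 277 ± 169 CPM with 21-40 and 168 ± 59.1 CPM with 1-20, a difference of 0.69 ± 0.25 (adjusted p = 0.0271), which was lost with the ribosomal RNA term (0.101), without sham replicate 6 (0.0634) or Western-diet replicate 7 (0.122), by limma-voom (0.106) and with log2 Myl7 as a term (0.0951). Gata4 was lower, at 145 ± 15.7 CPM with 21-40 and 160 ± 22.97 CPM with 1-20, a difference of -0.14 ± 0.05 (adjusted p = 0.0496), lost without any 1 of 18 libraries (highest 0.118, without male gamma replicate 10), without a low-count filter (0.0865), with clock components (0.225) and with the ribosomal RNA term (0.116). Myh6 lost its call with log2 Myl7 as a term (adjusted p = 0.0524) and with the ribosomal RNA term (0.17 ± 0.08, adjusted p = 0.175). All 3 myosin genes were thus called higher in the later-numbered males by the test as first given, and Myh7 and Myh7b also with the ribosomal RNA term.

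Without the males over 10 CPM of Myl7, 3 mixed-field libraries were left of title numbers 1-20. Against these, Myh7 was higher by 2.52 ± 0.56 and Myh7b by 1.13 ± 0.31 (adjusted p = 0.0109 and 0.0375 by edgeR). The other members were not called, while 2.15% of all genes were. Nppa differed by -0.31 ± 0.42 in the full set and by 1.30 ± 0.35 with log2 Myl7 as a term (adjusted p = 0.608 and 0.0045), while limma-voom on the full set called it lower, by -0.90 ± 0.33 (adjusted p = 0.0334). Its direction and its call thus depended on the method and on the Myl7 term.

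In females the same comparison called 1 member, Ankrd1, against 23.2% of all genes. It averaged 646 ± 235 CPM with 21-40 and 500 ± 183 CPM with 1-20 (SD, n = 20 each), a log2 difference of 0.40 ± 0.15 (adjusted p = 0.0476 by edgeR). The call was lost without any 1 of 27 libraries (highest adjusted p 0.115, without sham replicate 9), and without the 2 libraries that stand apart (0.31 ± 0.16, adjusted p = 0.15). It was also lost by DESeq2 (0.0587), by limma-voom (0.0804), with RLE scaling (0.0507), when the Myl7-rich libraries (over 10 CPM) were left out (0.0531) and with the ribosomal RNA term (0.258), under which Myh6 was called instead (0.22 ± 0.08, adjusted p = 0.0485), whereas with clock components Ankrd1 differed by 0.70 ± 0.16 and Nppb by 0.87 ± 0.23 (adjusted p = 0.000427 and 0.00311). Myh7 averaged 557 ± 368.5 CPM with 21-40 and 546 ± 478 CPM with 1-20, and Myh7b 202 ± 83.8 CPM with 21-40 and 205 ± 34.5 CPM with 1-20. Their log2 differences were 0.03 ± 0.25 and -0.05 ± 0.14.

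The male and female differences between title numbers were themselves compared. The male minus female difference was 1.15 ± 0.35 for Myh7 (adjusted p = 0.00939 by edgeR), 0.99 ± 0.19 for Myh7b (adjusted p = 6.63e-05) and -0.22 ± 0.08 for Gata4 (adjusted p = 0.0238), and these 3 of 10 were called against 25.6% of all genes. With the ribosomal RNA term edgeR called 0 of 10, with an unadjusted p under 0.05 for 2 (Myh7 and Gata4), against 6.8% of all genes called: Myh7 stood at 1.14 ± 0.52 (adjusted p = 0.158), Myh7b at 0.26 ± 0.22 (0.492) and Gata4 at -0.28 ± 0.11 (0.109). Over the other settings run, Myh7 was between 1.01 and 2.49 and Myh7b between 0.97 and 1.19, each still called. Gata4 also lost its call with the clock components (-0.18) and without the libraries over 10 CPM of Myl7 (-0.11). Rcan1 (0.33 ± 0.15) and Myh6 (0.20 ± 0.10) were not called (adjusted p = 0.0858 and 0.117), but passed without single libraries: Rcan1 without male Western diet replicate 2 (adjusted p = 0.0482) or female Western diet replicate 7 (0.0338), and Myh6 without male gamma replicate 7 (adjusted p = 0.0318). Markers of other cells moved too, while 12.3% of all genes were called lower and 16.5% higher in males. There 6 of 11 atrial, 5 of 9 tested conduction-system and 5 of 8 fibroblast markers were lower with 21-40, and 1, 0 and 0 higher. The higher atrial marker was Bmp10, with 8.20 ± 33.1 CPM (SD) in males numbered 21-40 and 148.9 CPM in sham replicate 6. Of 6 tested smooth muscle and pericyte markers 4 were lower and 0 higher. Higher with 21-40 were 1 of 5 erythroid and 2 of 7 endothelial markers, with 0 lower. The median erythroid sum was 403.9 CPM in males numbered 21-40 and 186.8 CPM in those numbered 1-20, and the endothelial one 1011 CPM and 900.7 CPM. The summed CPM of the atrial list ran from 121.5 to 2395 with a median of 149 in males numbered 21-40, against 137 to 1302 with a median of 331 in those numbered 1-20, and that of the fibroblast list from 573 to 1439, against 837 to 2509. The conduction-system sum ran from 62.3 to 119 CPM, against 67.0 to 168 CPM. The cardiomyocyte sum ran from 37150 to 60820 CPM with a median of 48860, against 40190 to 60790 with a median of 52550. Their part in the members' differences was not tested.

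**Figure D4:**
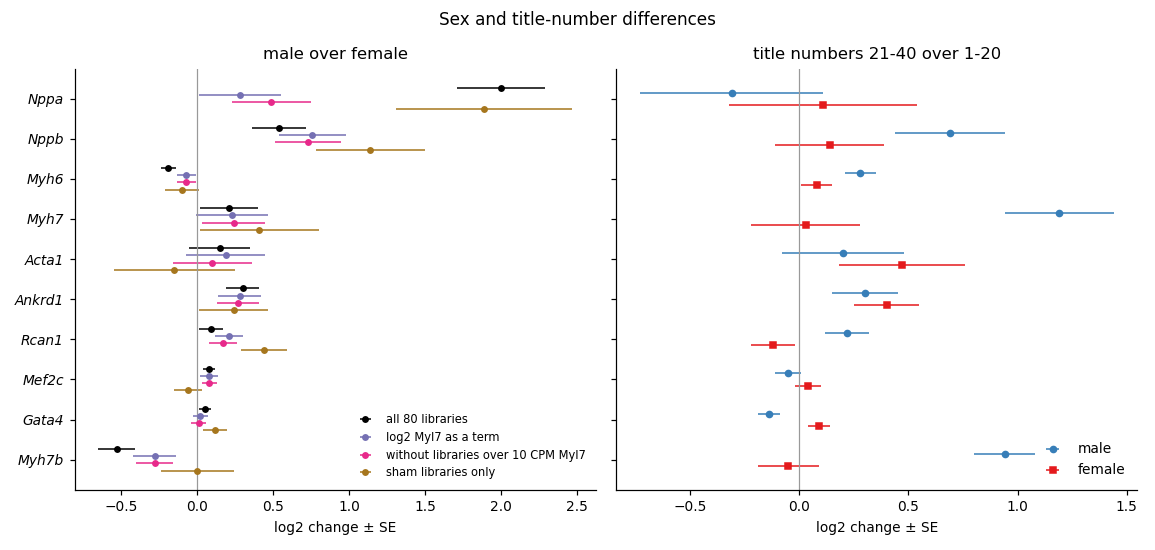
Log2 differences of each member with their standard errors from edgeR; the left panel gives males over females for all 80 libraries, with log2 Myl7 as a term, without libraries over 10 CPM of Myl7, and for sham libraries only, and the right panel title numbers 21-40 over 1-20 in males (circles) and in females (squares). Nppa leads between the sexes (2.00, but 0.28 with the Myl7 term), and Myh7 (1.19) and Myh7b (0.94) between title numbers in males, where the female values are 0.03 and -0.05.

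Nppb, Ankrd1, Rcan1 and Acta1 varied together from library to library. Correlations were computed on log2 CPM after taking away the mean of each group and set of title numbers, over 80 libraries and 45 pairs. They were 0.84 for Nppb with Rcan1, 0.81 for Ankrd1 with Rcan1, 0.80 for Nppb with Ankrd1, 0.70 for Acta1 with Ankrd1 and 0.68 for Acta1 with Rcan1, each with a permutation p of 0.000075 after adjustment over the pairs. Acta1 and Nppb were less close, at 0.46. Spearman's rho for those 5 pairs was 0.85, 0.78, 0.77, 0.72 and 0.70. Each held in all 4 sets of sex and title numbers, between 0.52 and 0.91, and each was at least 0.66 without the 2 farthest libraries. Transcripts of these genes thus varied together among libraries of the same treatment, while stretch and calcineurin activity were not measured.

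The remaining members did not join this set evenly. Nppa correlated with Ankrd1 at 0.54 and with Nppb at 0.38 over all libraries, but at -0.28 and -0.45 in males numbered 1-20, the set with most Myl7. Myh7 correlated with Ankrd1 at 0.47 and with Nppb at 0.33. The 2 main myosins were at -0.20, Myh6 and Ankrd1 at -0.42, and Myh7 and Myh7b at 0.21. Mef2c and Myh7b opposed each other most, at -0.68, with -0.84 and -0.40 in males and -0.23 and -0.87 in females for title numbers 1-20 and 21-40. Both also went with the ribosomal RNA share, in opposite directions. In the same order of sets, Spearman's rho with the share was 0.81, 0.56, 0.38 and 0.75 for Myh7b. For Mef2c it was -0.66, -0.49, -0.19 and -0.65. The part of the share in this pair was not tested.

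**Figure D5:**
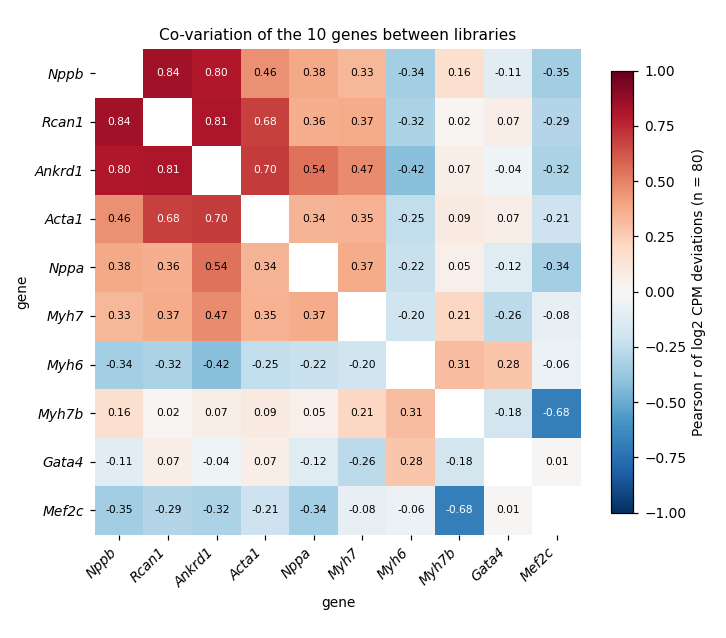
Pearson correlation of each pair of members over 80 libraries, on log2 CPM after taking away the mean of each group and set of title numbers; colour runs over -1 to 1 and each cell prints its value. Nppb, Ankrd1, Rcan1 and Acta1 form a block with values between 0.46 and 0.84, and Mef2c with Myh7b is the lowest at -0.68.

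A few libraries were high in many members at once. Male sham replicate 6 was among the 10 highest for 7 of the members, with 659 CPM of Nppb and 1445 CPM of Ankrd1, the highest of all 80 libraries, and 2079 CPM of Myh7, 950 CPM of Acta1, 168 CPM of Rcan1, 67.2 CPM of Nppa and 339 CPM of Myh7b. It also held 102 CPM of Myl7 and 148.9 CPM of the atrial marker Bmp10, the highest Bmp10 of all 80 libraries. Male sham replicate 9 and male gamma replicate 10 were each among the 10 highest for 5. A control male library thus had more of the members near the top than any treated one.

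The 3 genes most like each member were found by the correlation of log2 CPM as deviations from group means over 80 libraries, among 13414 genes that averaged 1 CPM or more. Nppb was most like Tnfrsf12a, which encodes the TWEAK receptor Fn14 (r = 0.88), Gdf15, a stress-induced cytokine of the TGF-beta family (0.81), and Tuba1c (0.75). Tnfrsf12a and Gdf15 were also nearest to Rcan1 (0.85 and 0.79, followed by Meox1 at 0.75), and Gdf15 to Ankrd1 (0.83, followed by Haus8 and Aqp8 at 0.77 each). Nppa was nearest to the atrial marker Dkk3 (0.82), then Gpx3 (0.79) and Fgf12 (0.73). Acta1 was nearest to Nlrc3 (0.68), Prnp (0.66) and Tbx15 (0.65).

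The myosins and transcription factors had other neighbours. Myh6 was nearest to Chd4 (0.74), Zfp629 (0.72) and Lamb2 (0.71), and Myh7 to Ppfia1 (0.65), Ralgps1 (0.63) and Cnksr1 (0.61). Myh7b was closest of all to its neighbours, Safb2 (0.92), Snapc4 (0.92) and Akap8l (0.90). Mef2c was nearest to Mtdh (0.83), Cpeb2 (0.83) and Erbin (0.82), and Gata4 to Extl1 (0.79), Wfs1 (0.78) and Cdk16 (0.78). Unlike the correlations between members, these keep the differences between title numbers, which can raise the values. They describe shared variation and, across so many genes, carry no test.

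Other genes of the pathway were counted from 6 lists. Over the 12 treatment comparisons, 2 of their genes were called, each once, while between 0 and 0.447% of all genes were called in a comparison. Hdac4, a repressor of MEF2 factors, averaged 44.4 CPM in Western-diet males and 32.1 CPM in sham males, a log2 change of 0.47 ± 0.11 (adjusted p = 0.0301 by edgeR). Tnfrsf12a, the gene most like Nppb and Rcan1, had a Western-diet effect in males minus females of -1.53 ± 0.37 (adjusted p = 0.0297), in the same direction as those members. The lists were chosen with earlier results of these data known, so these calls are no separate support. Tnni1, Gata5, Hand1, Agtr2, Nppc and Dio3 were too low to be tested.

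Between the sexes, 11.8% of all genes were called higher in males and 11.5% lower, and the lists are to be read against these shares. Of 26 other hypertrophy and fetal genes 9 were higher in males and 1 lower, with a median log2 difference of 0.11, against -0.008 over all genes. Among them were Myl4, which is also an atrial marker, the matricellular gene Ccn2 (0.57 ± 0.13), the cardiac actin gene Actc1 (0.18 ± 0.05) and the ventricular light chain gene Myl3 (0.22 ± 0.05). Smooth muscle markers moved with these: 5 of 6 tested smooth muscle and pericyte markers were higher in males, and the sum of that list ran from 494 to 1141 CPM in males and from 593 to 944 CPM in females. The lower gene, named after its value was seen, was Ankrd23, a relative of Ankrd1 (-0.46 ± 0.15).

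Of 10 tested natriuretic peptide receptor and processing genes, 4 were higher in males and 0 lower: the clearance receptor gene Npr3 (0.42 ± 0.07, adjusted p = 1.05e-06 by edgeR), the cGMP-dependent kinase gene Prkg1 (0.35 ± 0.07), the phosphodiesterase gene Pde5a (0.35 ± 0.09) and the protease gene Furin (0.16 ± 0.05). Of 22 hypertrophic hormone signalling genes, 5 were higher and 0 lower, among them Igf1 (0.32 ± 0.08) and the angiotensin receptor gene Agtr1a (0.24 ± 0.06). Of 28 cardiac transcription factor genes 6 were higher, including Tbx5 (0.37 ± 0.08) and Srf (0.18 ± 0.04), and 1 was lower. Of 12 thyroid hormone genes 4 were higher, including the receptor gene Thra (0.19 ± 0.05), and 0 lower. Of 15 calcineurin and NFAT genes 1 was higher, the kinase gene Dyrk1a (0.14 ± 0.04), and 0 lower. The list medians were 0.11, 0.05, 0.02, 0.01 and 0.04, against -0.008 over all genes.

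Between title numbers 21-40 and 1-20 in males, the transcription factor, hormone and thyroid lists held only lower calls: 9 of 28, 6 of 22 and 5 of 12, while 16.5% of all genes were called higher and 12.3% lower. They included Pura (-0.32 ± 0.06), which encodes a repressor of the alpha myosin gene, Nkx2-5 (-0.19 ± 0.06), Tead1 (-0.28 ± 0.09), Adrb1 (-0.31 ± 0.07) and Thra (-0.21 ± 0.06). The natriuretic list had 3 higher, with the ANP and BNP receptor gene Npr1 at 0.45 ± 0.08 (adjusted p = 4.95e-06 by edgeR), and 4 lower of 10. The calcineurin list had 2 higher, with the calcineurin inhibitor gene Cabin1 at 0.28 ± 0.05, and 3 lower of 15, with Rcan2, a relative of Rcan1, at -0.19 ± 0.05. The other hypertrophy and fetal genes had 4 higher and 3 lower of 26, with Gdf15 at 0.63 ± 0.25.

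In females some genes of the same lists differed the other way. The other hypertrophy and fetal genes had 5 higher and 0 lower of 26, with Acta2 at 0.45 ± 0.14 against -0.43 ± 0.13 in males, a difference of -0.88 ± 0.19 (adjusted p = 0.000319 by edgeR). Hopx, which encodes a homeodomain cofactor of heart muscle, was higher in females (0.33 ± 0.08) and lower in males (-0.30 ± 0.08), a difference of -0.62 ± 0.11 (adjusted p = 1.31e-05). Tead1 and Thra were lower in females as in males, by -0.48 ± 0.09 and -0.27 ± 0.06. The transcription factor list had 2 higher and 6 lower, the hormone list 2 and 4, the natriuretic list 1 and 2, the calcineurin list 1 and 2, and the thyroid list 0 and 3. Of all genes 11.5% were called higher and 11.7% lower in this comparison.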

How the data were processed

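RNA of left ventricle was sequenced in 80 libraries; per the submitters' processing notes STAR 2.7.8a, FastQC 0.11.9 and the mm39 (GRCm39) build were used, while the sources used here do not give the counting program, its annotation or its strand setting. The authors deposited raw counts per gene, whole and not normalized, for 56941 genes; 56323 matched GENCODE vM39. Columns were assigned to samples by title, and groups, sexes and title numbers come from the labels. No 2 libraries agreed within counting noise; the closest were female gamma replicates 8 and 9, with a chi-square per degree of freedom of 1.612, against 4.065 to 12.86 for the closest pair of each other group, and they were counted as 2.

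CPM and tests used edgeR 4.0.16 (R 4.3.3) on the counts as deposited: TMM scaling, edgeR's filter on low counts (15879 genes left), a quasi-likelihood fit with 1 coefficient per group, and for title numbers 1 more term per sex. Adjusted p-values are Benjamini-Hochberg over all tested genes, called under 0.05; 16 comparisons were made. Correlations used log2(CPM + 0.5) and 100000 two-sided permutations. DESeq2 1.42.0, limma-voom (limma 3.58.1), other scaling and filtering, clock, Myl7 and ribosomal RNA terms, and left-out libraries were the alternatives; those without 2 libraries, with the ribosomal RNA term and with both limits on titles and Myl7 were chosen after seeing the data. The scripts were tested on simulated data. Depth, between 13484776 and 22143504 counts, limits precision for Nppa most. The members and gene lists were chosen with earlier results of these data known. Named genes are the members, Myl7, examples from the up to 6 called genes of smallest p in each other list and comparison, and the 3 most correlated genes per member. Replicate numbers did not pair libraries across groups: deviations of same-numbered libraries correlated at -0.23 to 0.28 (median 0.01) over 40 pairs.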

Additional observations from a re-analysis of the deposited data

Results flagged for a closer look

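Each member was looked at in each group of 10 libraries for a library far from the other 9, that is, whose gap to its nearest neighbour, as a share of the group's range, exceeded Dixon's critical value. Of 80 such sets 7 held one, in 6 libraries; chance gives about 1 in 20 sets. Nppa stood at 130.6 CPM in male mixed field replicate 8, against 4.28 to 18.2 CPM in the others of its group, and this library also had the highest Myl7 of all (628 CPM); the part of atrial tissue was not tested. Myh7 stood at 2079 CPM in male sham replicate 6 (187.5 to 548 CPM in the others), where Ankrd1 also stood apart at 1445 CPM (417 to 759 CPM). Myh7 was at 2535 CPM in female mixed field replicate 4, against 304 to 856 CPM. Low values were Myh6 at 19310 CPM in female gamma replicate 4 (25100 to 29270 CPM in the others), Acta1 at 69.3 CPM in male Western diet replicate 9 (214 to 761.5 CPM) and Gata4 at 107 CPM in female mixed field replicate 10 (133 to 162 CPM), 1 of the 2 libraries that stand apart.

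The difference between title numbers 21-40 and 1-20 was itself unlike between males and females for 3 members by edgeR's test of the difference. The male minus female value was 1.15 for Myh7, 0.99 for Myh7b and -0.22 for Gata4 on the log2 scale. With the log2 ribosomal RNA share as a term the values were 1.14, 0.26 and -0.28. Then 0 of 10 members were called (2 with an unadjusted p under 0.05), against 6.8% of all genes (24.7% with an unadjusted p under 0.05).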

How the results depend on the processing

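Among the treatment comparisons, the count of members called in Western-diet males was 1 by DESeq2 (0.919% of all genes). It was 1 there with a title-number term (1.22%) and 2 with title numbers 1-20 only (2.92%). With title numbers 1-20 only, 1 was called for the mean of the sexes (at most 0.607% for any treatment) and 1 for mixed-field females (0.244%). The sex difference of the Western-diet effect had 1 with a title-number term (0.97%). Leaving out single libraries gave 0 to 1 in Western-diet males and 0 to 2 for that difference. Males against females had 3 members called with title numbers 21-40 only (19.8% of all genes), 1 without libraries over 10 CPM of Myl7 (9.68%), 1 with log2 Myl7 as a term (9.24%), 0 in sham libraries only (1.2%), 0 with 21-40 and the Myl7 limit together (18.1%), and 3 to 5 with single libraries left out. Between title numbers, males had 2 with the Myl7 limit (2.15% of all genes), 2 with the ribosomal RNA term (8.68%) and 3 to 5 with single libraries left out. Females had 0 by DESeq2 (24.1% of all genes), by limma-voom (22.6%), with RLE scaling (23.2%), with the Myl7 limit (22.8%) and without the 2 libraries that stand apart (20.1%). They had 4 with clock components (28.1%), and 0 to 1 with single libraries left out. The sex difference between title numbers had 0 with the ribosomal RNA term (6.8% of all genes). Among results called either as reported or under the alternative, directions reversed for Nppa with log2 Myl7 as a term (1.30 in males, 1.25 for the sex difference) and for Rcan1 in females with clock components (0.28). The correlation of Nppa and Myl7 in males numbered 21-40 was 0.06 with the Myl7 limit. The causes were not tested.

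Replicate numbers did not pair the libraries (11 of 40 pairs correlated over 0.1, and 0 libraries best with their own number). With them as a block, 5 members were called between the sexes (23.8% of all genes) and 4 for the sex difference between title numbers (25.5%). The block called 0 members for the sex differences of the 3 treatments, against 0.265% (Western diet), 0.0126% (mixed field) and 0% (gamma) of all genes. Over all genes, Western-diet males had 63 calls by edgeR and 146 by DESeq2, and 18 to 175 with single libraries left out; gamma males had 28 by edgeR, 12 by DESeq2 and 0 by limma-voom, and 1 to 50. A fit with both the Myl7 limit and a title-number term per sex was not run. Depth limits Nppa most, with as few as 15 counts in a library.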
